A study of Homo sapiens with 12 samples.

Results

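The 9 genes described here encode parts of the major histocompatibility complex (MHC) class I presentation pathway and the checkpoint ligand PD-L1, namely HLA-B, HLA-C, HLA-E, HLA-F, B2M, TAP1, TAP2, TAPBP and CD274. In GENCODE 29 on GRCh38, 7 of them lie on chromosome 6, in or near the MHC: HLA-F (chr6:29722775-29738528), HLA-E (chr6:30489467-30494205), HLA-C (chr6:31268749-31272130), HLA-B (chr6:31269491-31357188), TAP2 (chr6:32821833-32838780), TAP1 (chr6:32845209-32853978) and TAPBP (chr6:33299694-33314387). B2M lies at chr15:44711487-44718877 and CD274 at chr9:5450503-5470566. The annotated spans of HLA-B and HLA-C overlap, and 1.15% and 1.4% of their exon bases are shared on the same strand. They were chosen by name out of 60558 genes whose identifiers stood in both expression tables, and all 9 were present and passed the filter on low counts in both. The RNA came from MDA-MB-231, an established human triple-negative breast cancer (TNBC) cell line. In one experiment NONO, a nuclear RNA- and DNA-binding protein of paraspeckles, was knocked down by siRNA, and in the other PKM2, a splice form of the glycolytic enzyme pyruvate kinase M. Each knockdown had its own negative control (NC) group, no other treatment was given in the labels, and each of the 4 groups held 3 libraries. Nothing in the labels showed that replicates came from separate cultures, so every P value measures only the spread between these libraries, which may be technical.

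MHC class I molecules show peptides from inside the cell to CD8 T cells and natural killer (NK) cells. The proteasome cuts proteins, the TAP1 and TAP2 transporter carries the peptides into the endoplasmic reticulum, tapasin (TAPBP) holds the empty class I molecule at the transporter while peptide is loaded, and a heavy chain leaves for the cell surface together with beta-2-microglobulin (B2M). Most of these genes are switched on together by interferon through interferon-stimulated response elements (ISRE), and class I promoters also carry the SXY module, which binds the RFX complex, CREB family members and NF-Y and recruits NLRC5. PD-L1 (CD274) binds PD-1 on T cells and restrains them, and it is also induced by interferon gamma.

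Promoter sequence was looked up because these genes are textbook examples of shared control. RefSeq windows on GRCh38.p14 were found for 8 of the 9 genes, all but HLA-E, and the 250 bases before the annotated start were searched on both strands for GAAA followed after any 2 bases by another GAAA (ISRE-like), CCAAT (the core bound by NF-Y) and TGACGC (X2-like, a CREB-type site of the SXY module). The 5 windows of genes on which the results turn are shown 5′ to 3′ in the direction of the gene, with every match in capitals.
HLA-B, chr6:31357180-31357429, minus strand: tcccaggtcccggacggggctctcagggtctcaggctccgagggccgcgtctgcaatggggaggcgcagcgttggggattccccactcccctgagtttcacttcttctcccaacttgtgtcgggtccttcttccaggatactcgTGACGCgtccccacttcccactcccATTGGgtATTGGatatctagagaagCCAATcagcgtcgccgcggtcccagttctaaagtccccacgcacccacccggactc
B2M, chr15:44711267-44711516, plus strand: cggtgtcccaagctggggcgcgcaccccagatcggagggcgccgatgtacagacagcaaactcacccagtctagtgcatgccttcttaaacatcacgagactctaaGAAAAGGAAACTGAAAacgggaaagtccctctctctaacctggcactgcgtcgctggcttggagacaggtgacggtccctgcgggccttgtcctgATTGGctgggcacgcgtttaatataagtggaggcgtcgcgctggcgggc
TAP1, chr6:32853705-32853954, minus strand: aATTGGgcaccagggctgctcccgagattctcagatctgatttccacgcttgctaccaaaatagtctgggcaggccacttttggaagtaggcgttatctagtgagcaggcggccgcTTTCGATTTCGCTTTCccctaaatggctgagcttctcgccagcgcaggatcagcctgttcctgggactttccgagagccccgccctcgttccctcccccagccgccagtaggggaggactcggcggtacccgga
TAPBP, chr6:33314079-33314328, minus strand: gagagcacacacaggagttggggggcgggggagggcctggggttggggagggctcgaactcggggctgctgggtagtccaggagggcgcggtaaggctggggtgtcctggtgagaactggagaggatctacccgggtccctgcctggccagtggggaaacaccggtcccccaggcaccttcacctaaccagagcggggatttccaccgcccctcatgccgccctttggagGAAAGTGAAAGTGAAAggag
CD274, chr9:5450292-5450541, plus strand: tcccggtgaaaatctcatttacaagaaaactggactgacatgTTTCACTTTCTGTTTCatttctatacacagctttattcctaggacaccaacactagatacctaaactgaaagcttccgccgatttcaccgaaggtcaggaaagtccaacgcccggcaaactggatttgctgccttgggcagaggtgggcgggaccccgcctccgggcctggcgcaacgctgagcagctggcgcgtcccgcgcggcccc
The ISRE-like word was present in 6 of the 8 windows (HLA-F, B2M, TAP1, TAP2, TAPBP and CD274), against 3.02% of 35116 human promoter windows of the same length. In B2M, TAP1, TAPBP and CD274 a pair of matches overlapped. CCAAT was found in 5 of the 8 (HLA-B, HLA-C, HLA-F, B2M and TAP1), against 32% of all windows, and TGACGC in 3 of the 8 (HLA-B, HLA-C and TAP2), against 7.67%. A match describes letters only, and no binding was measured here. Only these exact words were searched, so a window without a match may still hold a variant of the site. The TAP1 start lay 487 bases from that of PSMB9, an immunoproteasome gene transcribed in the opposite direction.

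The total estimated count ranged from 19861762 to 20981712 per library in the NONO experiment and from 24097948 to 28455268 in the PKM2 experiment. As a check of the labels, NONO fell from 373 ± 16.7 to 62.7 ± 1.40 CPM (the count scaled to library size by TMM, mean ± SD, n = 3) after NONO knockdown, and PKM, which is counted without separating its splice forms, fell from 2270 ± 56.7 to 227 ± 8.30 CPM after PKM2 knockdown. The 4 markers of MDA-MB-231 cells had NC means from 74.8 TPM (EGFR; TPM is a level per transcript length and library) to 3787 TPM (VIM). Some of them moved with the knockdowns. EGFR fell (log2 -0.41, adjusted P = 1.42e-05) and VIM rose (0.28, adjusted P = 5.55e-05) after NONO knockdown, and KRT18 (0.90, adjusted P = 5.01e-08) and VIM (0.14, adjusted P = 0.033) rose after PKM2 knockdown. Of the receptors that define TNBC, ESR1 and PGR stayed at 0.157 TPM or less in every group mean. ERBB2, the gene of HER2, was at 30.8 ± 3.97 and 26.7 ± 0.338 TPM in the NC groups and fell after PKM2 knockdown (log2 -0.86, adjusted P = 6.12e-08). The part of these shifts in the results was not tested. The 6 leukocyte markers summed to 0.5 to 1.87 TPM per library, and CD3E, CD3D and MS4A1 were listed at 0 throughout. The 8 class II genes summed to 3.99 to 5.33 TPM in NC and 1.65 to 2.74 TPM after NONO knockdown, and to 3.54 to 4.19 TPM in NC and 1.09 to 1.75 TPM after PKM2 knockdown. Most of that sum was HLA-DMA, a chaperone of class II peptide loading, at 3.32 and 2.27 TPM in the NC groups, while HLA-DPB1 was listed at 0 in all libraries. In bulk RNA, fewer cells expressing a gene and less RNA per cell cannot be told apart.

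Levels between genes were compared per length, in TPM. In the NC libraries B2M was highest by far, at 1806 ± 53.6 TPM in the NONO experiment and 1719 ± 47.3 TPM in the PKM2 experiment. HLA-B followed at 340 ± 25.0 and 354 ± 10.6 TPM. HLA-C stood at 164 ± 23.1 and 208 ± 5.46 TPM and HLA-E, which shows leader peptides of other class I chains to NK cells, at 161 ± 15.9 and 144 ± 2.97 TPM. The ranges of HLA-C and HLA-E overlapped in the NC libraries of the NONO experiment and were apart in those of the PKM2 experiment. The loading genes were lower, with TAPBP at 62.7 ± 0.797 and 49.99 ± 4.63 TPM, TAP2 at 43.8 ± 3.89 and 68.9 ± 0.793 TPM and TAP1 at 27.5 ± 0.901 and 33.0 ± 3.30 TPM. TAPBP and TAP2 changed places between the experiments, and the lengths implied by count and TPM differed too. For TAP2 the implied length in NC was 1.13 to 1.20 times the tabulated gene length in the NONO experiment and 0.661 to 0.681 times in the PKM2 experiment, and for TAPBP it was 2.13 to 2.25 and 1.85 to 1.89 times. In CPM, TAP2 was not higher in the PKM2 experiment, at 147 beside 165 in the NONO experiment. Per tabulated length (5676 bases for TAP2 and 1888 for TAPBP), TAPBP at 148 and 99.4 CPM was above TAP2 in both. CD274 was at 15.0 ± 0.883 and 14.7 ± 2.12 TPM, and HLA-F was lowest at 7.96 ± 1.95 and 3.90 ± 0.455 TPM. No other neighbours in either order overlapped. The tables were made separately and differ in their gene sets and in some tabulated gene lengths, so the levels of the 2 NC groups were set side by side and not tested.

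**Figure D1:**
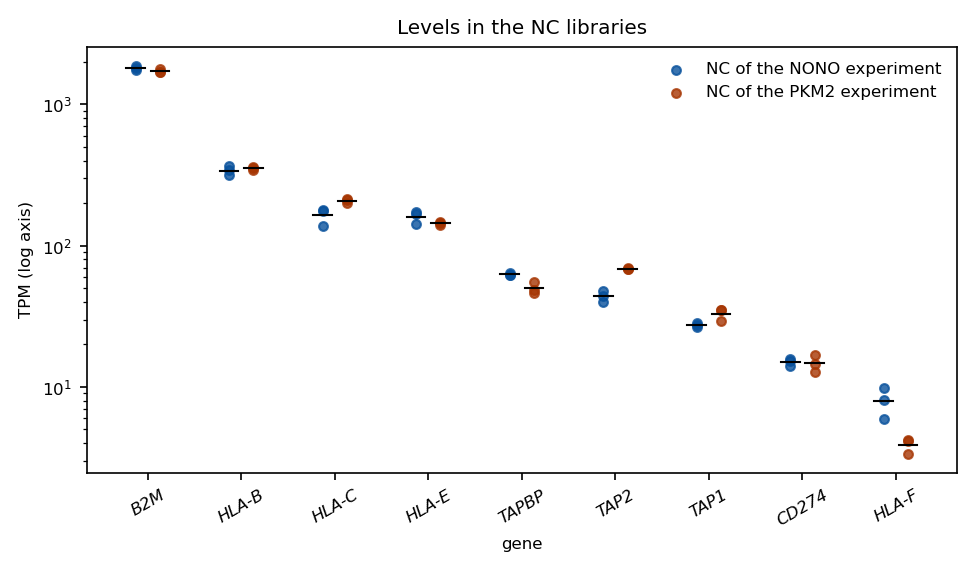
TPM of each gene (vertical axis, log scale) in the 3 NC libraries of each experiment, points for libraries and bars for group means. B2M lies at 1689 TPM or more in every library and HLA-F at 9.86 TPM or less.

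After NONO knockdown, 4 of the 9 genes passed an adjusted P of 0.05 in edgeR, 2 higher (HLA-E and B2M) and 2 lower (TAP1 and TAP2). The same test called 33.4% of 14832 genes, 16.2% higher and 17.2% lower. None of the 9 changed more than 2-fold, a size that 2.95% of all genes passed with P below 0.05, although 5 had an unadjusted P below 0.05. After PKM2 knockdown, 6 of the 9 passed, 5 higher (HLA-B, HLA-C, HLA-E, B2M and CD274) and 1 lower (TAPBP). There the background was 68.4% of 15524 genes, 33.6% higher and 34.7% lower, so the number of calls did not set these genes apart. TAPBP alone changed more than 2-fold, as did 20.8% of all genes. The groups did not overlap in CPM for 5 of the 9 genes in the NONO experiment (46.1% of all genes) and for 6 of the 9 in the PKM2 experiment (71.9%). The median log2 fold change of the 9 was -0.09 after NONO knockdown and 0.25 after PKM2 knockdown, beside -0.01 and -0.02 (median size 0.19 and 0.47) over all genes tested.

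**Figure D2:**
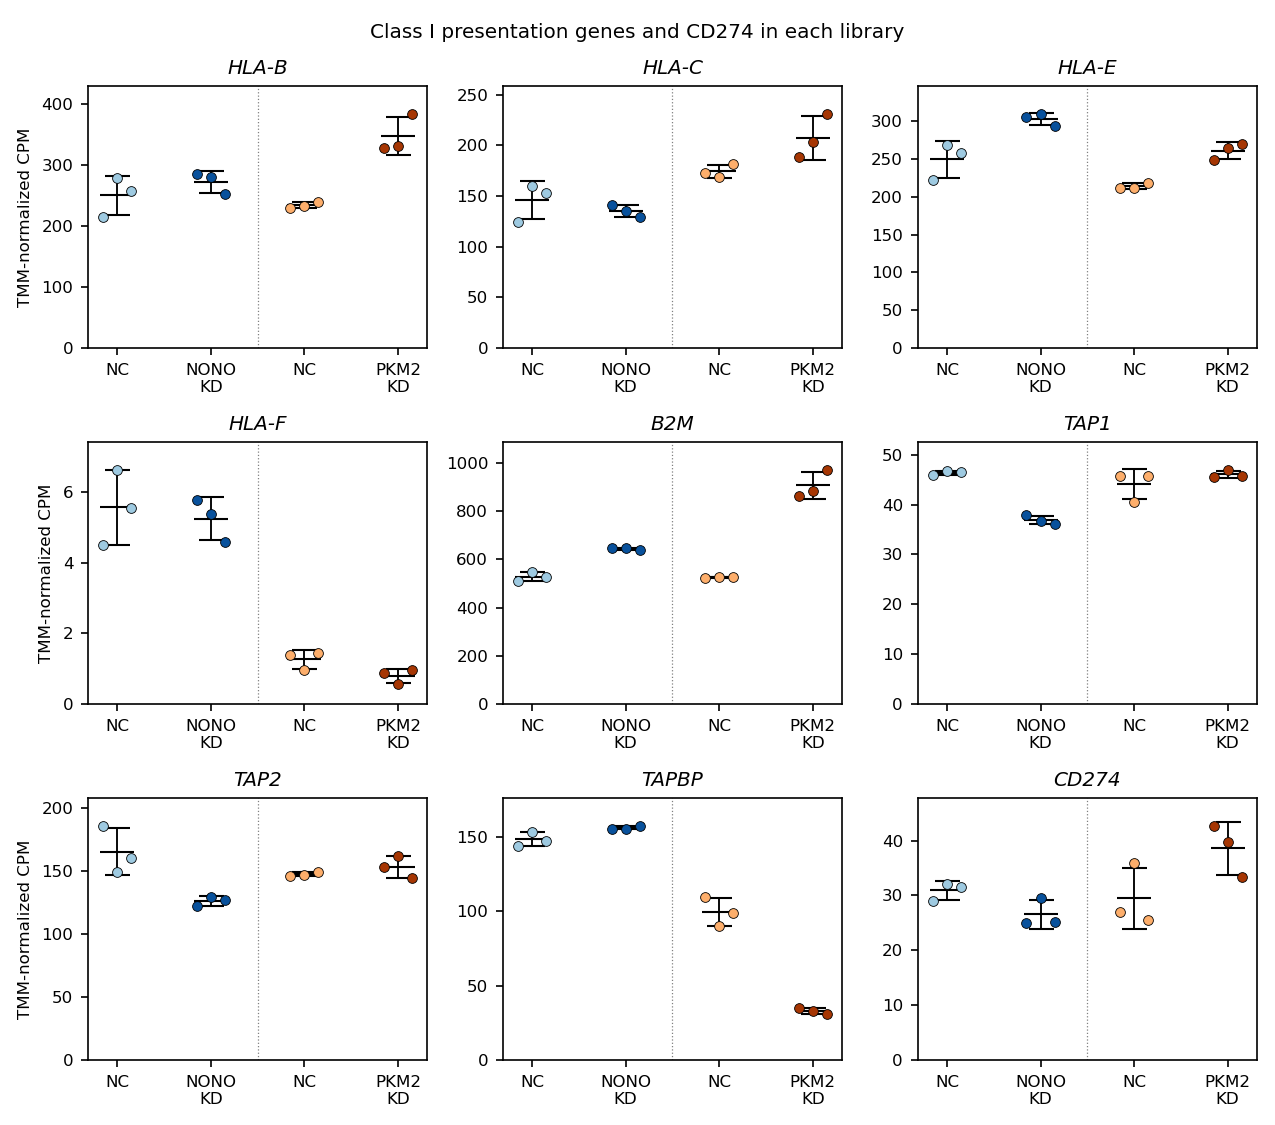
TMM-normalized CPM (vertical axes from 0) of each gene in each library, with the mean and SD of 3 libraries per group; the dotted line parts the experiments, which have separate NC groups. TAPBP is at 31.0 to 34.6 CPM in the PKM2 knockdown libraries and at 90.3 to 109 CPM in their NC libraries.

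Among the heavy chains, HLA-B, the most abundant of the 4, showed 215, 278 and 256 CPM in NC and 285, 280 and 252 CPM after NONO knockdown. These groups overlapped (log2 fold change 0.12, SE 0.08, adjusted P = 0.273; 0.01 with limma on log2(TPM + 1)). In the PKM2 experiment it was at 229, 233 and 239 CPM in NC and at 327, 331 and 383 CPM after knockdown. Every knockdown library was above every NC library, and the rise was 1.49-fold (log2 0.57, SE 0.06, adjusted P = 5.66e-06). With limma on log2(TPM + 1) it was smaller, 0.36 (adjusted P = 0.000274). HLA-C, the second classical heavy chain, had 125, 160 and 153 CPM in NC and 141, 135 and 129 CPM after NONO knockdown (log2 fold change -0.12, SE 0.08, adjusted P = 0.296). NC library 1 was the low one, and without it the difference was -0.21 with an adjusted P of 0.000398. After PKM2 knockdown HLA-C went from 173, 169 and 182 to 188, 203 and 231 CPM, a 1.19-fold rise without overlap (log2 0.25, SE 0.07, adjusted P = 0.00671). With limma on log2(TPM + 1) the rise was 0.12 (adjusted P = 0.0477), and without a filter on low values it lost the call (adjusted P = 0.0827).

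HLA-E was the only heavy chain that rose in both experiments. It went from 222, 268 and 259 to 306, 310 and 294 CPM after NONO knockdown (log2 0.28, SE 0.06, adjusted P = 0.00551), and from 212, 212 and 219 to 248, 264 and 270 CPM after PKM2 knockdown (log2 0.28, SE 0.05, adjusted P = 0.000222). The groups were apart both times, and the fold on counts was 1.21 and 1.22. On log2(TPM + 1) with limma the differences were 0.22 (adjusted P = 0.0735) and 0.13 (adjusted P = 0.0191). HLA-F, another nonclassical heavy chain, rested on few reads. Its estimated counts were 89.6, 139 and 119 in NC and 116, 106 and 90 after NONO knockdown, overlapping groups with a log2 difference of -0.09 (SE 0.17, adjusted P = 0.743). In the PKM2 experiment they were 41.0, 24.0 and 41.1 in NC and 21.3, 13.04 and 24.5 after knockdown. Its CPM values were lower in all 3 knockdown libraries, but only just, at 0.951 in knockdown library 3 and 0.953 in NC library 2. The log2 difference of -0.67 (SE 0.33) missed the threshold (adjusted P = 0.086). With limma on TPM it was -0.78 with an adjusted P of 0.0241. The length implied by count and TPM was 0.343 to 0.412 times the tabulated one in NC and 0.356 to 0.596 times after knockdown. In the annotation 28.5% of the exon bases of HLA-F, 17.8% of those of HLA-B and 9.49% of those of TAP1 are shared with genes on the opposite strand, and the handling of strand was not given in the sources used here.

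B2M, the light chain common to all class I molecules, rose in both experiments. It was at 510, 549 and 528 CPM in NC and at 646, 648 and 639 CPM after NONO knockdown, 1.22-fold higher (log2 0.28, SE 0.04, adjusted P = 0.000267). The PKM2 experiment gave 524, 525 and 528 CPM in NC and 865, 886 and 971 CPM after knockdown, 1.73-fold higher (log2 0.79, SE 0.05, adjusted P = 7.34e-08). Each knockdown group was clear of its NC group. In TPM the light chain outnumbered the 4 heavy chains together, with a ratio of 2.69 ± 0.109 in NC and 3.07 ± 0.236 after NONO knockdown, and of 2.43 ± 0.113 in NC and 3.28 ± 0.0481 after PKM2 knockdown. Each of these pairs was fully separated (exact permutation test, two-sided, P = 0.1, the smallest that 3 against 3 libraries can give). After PKM2 knockdown the fold changes of all genes leaned with GC content, from a median log2 of 0.13 in the lowest of 20 bins to -0.30 in the highest. B2M is AT-rich for an expressed gene (GC 40.5%, percentile 11), and the value was 0.51 once the trends with GC content and length were subtracted. The same step moved HLA-C to 0.47, HLA-E to 0.58 and HLA-B to 0.68. B2M then stood below HLA-B and HLA-E and above HLA-C. The ratio of light to heavy chains was taken without this step, so its rise after PKM2 knockdown was not separated from the trend.

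The transporter genes went the other way after NONO knockdown. TAP1 fell from 45.9, 46.8 and 46.5 to 37.9, 36.7 and 36.2 CPM (0.796-fold, log2 -0.33, SE 0.05, adjusted P = 0.000841), with little spread and no overlap. After PKM2 knockdown it stood at 45.5, 46.9 and 45.8 CPM beside 45.8, 40.6 and 45.8 CPM in NC (log2 0.06, SE 0.06, adjusted P = 0.396), and the groups overlapped. That value was 0.24 once the trend with GC content and length was taken out. TAP2 fell from 186, 149 and 160 to 122, 130 and 127 CPM after NONO knockdown (0.765-fold, log2 -0.39, SE 0.07, adjusted P = 0.00149). After PKM2 knockdown it was at 153, 161 and 144 CPM, with 146, 147 and 149 CPM in NC (log2 0.05, SE 0.05, adjusted P = 0.383). Without knockdown library 3 that difference was 0.10 with an adjusted P of 0.0333, and with the trend of GC content and length taken out it was 0.18.

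Counts and TPM gave different pictures of TAP2. Its TPM was 47.5, 39.7 and 44.1 in NC and 32.4, 65.3 and 33.8 after NONO knockdown, so that library 2 stood far above the other knockdown libraries although its count did not. With limma on log2(TPM + 1) the difference was -0.07 (adjusted P = 0.875). After PKM2 knockdown TPM went from 68.7, 68.2 and 69.8 to 40.3, 60.1 and 56.9, a difference of -0.41 (adjusted P = 0.0362) where the counts gave 0.05. The length implied by count and TPM ran from 0.587 to 1.20 times the tabulated gene length across the NONO libraries and from 0.661 to 1.13 times across the PKM2 libraries, so the deposited count and TPM implied different transcript lengths in different libraries. TAP2 also shares exon bases on its own strand with the overlapping gene AL669918.1, and 35.2% of the 100-base windows of its longest coding transcript occur there. AL669918.1, named after its values were seen, took 3.97% to 12.2% of the summed estimated count of both genes. It had 521, 452 and 463 estimated counts in the PKM2 experiment's NC libraries and 239, 205 and 229 after knockdown (log2 -0.91, adjusted P = 2.76e-06). With both genes summed, the log2 ratio of mean CPM was -0.34 after NONO knockdown and -0.02 after PKM2 knockdown.

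TAPBP, which encodes tapasin, had the largest change of the 9. In the PKM2 experiment it fell from 109, 90.3 and 98.5 CPM to 34.6, 32.8 and 31.0 CPM, to 0.330 of the NC level (log2 -1.60, SE 0.08, adjusted P = 6.38e-09). The highest knockdown library was far below the lowest NC library. TPM showed the same, 55.1, 46.0 and 49.0 in NC and 18.7, 17.4 and 15.1 after knockdown. After NONO knockdown TAPBP was at 155, 155 and 157 CPM, above 144, 153 and 147 CPM in NC, yet the log2 difference of 0.07 (SE 0.04) did not pass (adjusted P = 0.209) and was 0.00 on TPM. The ratio of TAPBP counts to the summed TAP1 and TAP2 counts went from 0.519 ± 0.0448 to 0.165 ± 0.00868 after PKM2 knockdown, and from 0.706 ± 0.0804 to 0.956 ± 0.0201 after NONO knockdown. Both pairs were fully separated in opposite directions (exact permutation test, two-sided, P = 0.1 each). TAPBP is GC-rich (63%, percentile 93), and with the trend of GC content and length taken out its difference after PKM2 knockdown was -1.39. No exon base of TAPBP is shared with another annotated gene.

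CD274 was close to the threshold in both experiments, on opposite sides of zero. After NONO knockdown it was at 25.0, 29.5 and 25.1 CPM, with 29.01, 32.1 and 31.6 CPM in NC (log2 -0.22, SE 0.08, adjusted P = 0.0605; -0.33 and 0.0704 with limma on log2(TPM + 1)). Only knockdown library 2 reached into the NC range. Without that library the difference was -0.30 (adjusted P = 0.0259), and without NC library 1 it was -0.25 (adjusted P = 0.0115). After PKM2 knockdown CD274 was at 42.6, 39.7 and 33.3 CPM, with 26.9, 35.9 and 25.6 CPM in NC. The groups overlapped, because NC library 2 lay above knockdown library 3, and the 1.31-fold rise passed the test (log2 0.39, SE 0.12, adjusted P = 0.0147). That call was lost without NC library 1 (0.33, adjusted P = 0.0684), NC library 3 (0.30, adjusted P = 0.0731) or knockdown library 1 (0.32, adjusted P = 0.0524), and on log2(TPM + 1) the difference was 0.10 (adjusted P = 0.565).

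**Figure D3:**
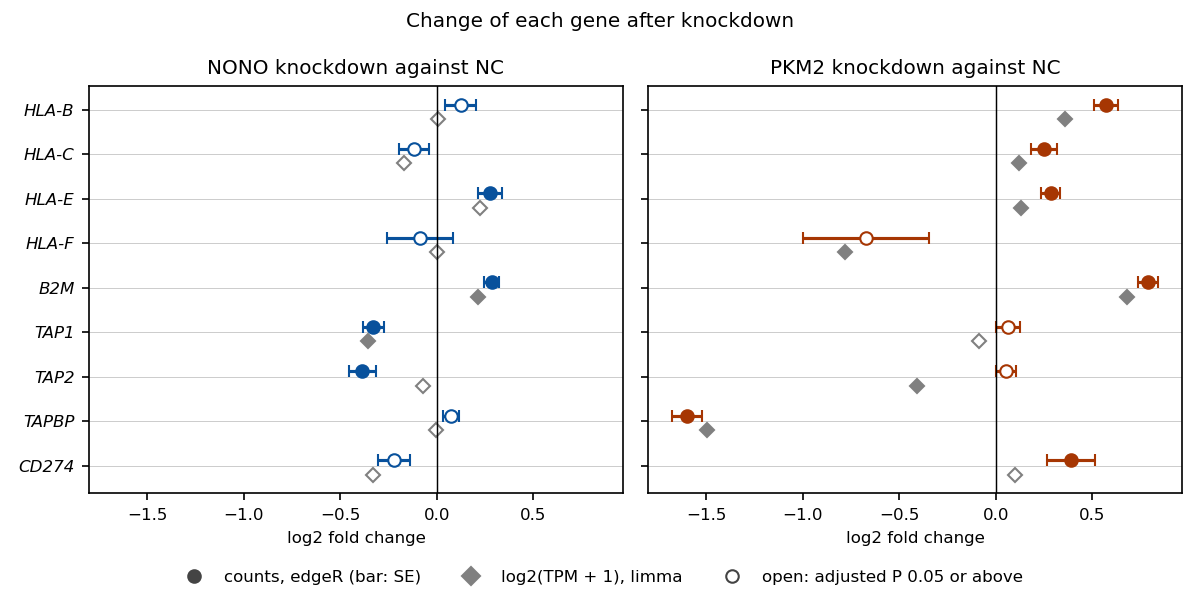
Log2 fold change of each gene against its own NC group (horizontal axis); circles with SE are edgeR on counts, diamonds are limma on log2(TPM + 1), and open symbols have an adjusted P of 0.05 or above. TAP2 is the gene whose symbols lie farthest apart, -0.39 and -0.07 after NONO knockdown and 0.05 and -0.41 after PKM2 knockdown.

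The change after PKM2 knockdown was compared with that after NONO knockdown in 1 fit over the 12 libraries. The difference passed for 7 of the 9 genes, against 53.1% of 15995 genes, with 6 higher after PKM2 knockdown and TAPBP lower. It was largest for TAPBP (log2 -1.69, SE 0.09, adjusted P = 9.83e-11). Next came CD274 at 0.60 (SE 0.17, adjusted P = 0.00552) and B2M at 0.49 (SE 0.07, adjusted P = 7.77e-06). HLA-B at 0.43, TAP2 at 0.43, TAP1 at 0.38 and HLA-C at 0.35 also passed, with adjusted P between 0.000754 and 0.0156. HLA-E differed by -0.01 (SE 0.08, adjusted P = 0.953) and HLA-F by -0.60 (SE 0.33, adjusted P = 0.143). With the trends of GC content and length taken out within each experiment, HLA-E rose by 0.34 after NONO and 0.58 after PKM2 knockdown. With limma on log2(TPM + 1), the differences of HLA-C (0.29, adjusted P = 0.0673) and CD274 (0.43, adjusted P = 0.0767) no longer passed, and that of TAP2 turned to -0.34 (adjusted P = 0.411).

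Another 58 genes around the pathway were listed in 6 groups by role. Of these, 49 passed the filter in each experiment. After NONO knockdown 25 of the 49 passed the test, 10 higher and 15 lower, with a median log2 fold change of -0.13. After PKM2 knockdown 37 passed, 13 higher and 24 lower, with a median of -0.21. The shares can be read beside 33.4% and 68.4% of all genes. By direction, 16.2% of all genes were higher and 17.2% lower after NONO knockdown, and 33.6% and 34.7% after PKM2 knockdown.

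Peptide supply covered 8 genes of the proteasome and of trimming. In the NONO experiment 2 passed, 1 in each direction, and in the PKM2 experiment 3 passed, 2 higher and 1 lower. The shares of all genes that passed were 33.4% and 68.4%. PSMB8, a catalytic subunit of the immunoproteasome, rose from 23.1, 23.4 and 23.5 to 48.0, 48.4 and 57.1 CPM after PKM2 knockdown (2.19-fold, log2 1.13, SE 0.08, adjusted P = 9.46e-08). After NONO knockdown it was at 24.6 ± 2.55 CPM beside 23.9 ± 1.21 CPM in NC (adjusted P = 0.735). Its partner PSMB9, the neighbour of TAP1 and named after its values were seen, fell from 4.87 ± 0.693 to 2.80 ± 0.0510 CPM after NONO knockdown (log2 -0.80, adjusted P = 0.00408). After PKM2 knockdown PSMB9 did not rise with PSMB8, at 6.20 ± 0.496 CPM beside 6.59 ± 0.884 CPM in NC (log2 -0.09, adjusted P = 0.576). ERAP2, which trims peptides in the endoplasmic reticulum, rose 1.75-fold after PKM2 knockdown (log2 0.81, adjusted P = 4.12e-05). THOP1, a cytosolic peptidase that destroys peptides, fell there from 160 ± 3.18 to 70.4 ± 2.59 CPM (log2 -1.18, adjusted P = 2.42e-09) and was 1.15-fold higher after NONO knockdown (adjusted P = 0.00805, and 0.09 with limma on TPM).

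Of the 5 loading factors of the endoplasmic reticulum, 3 were called after NONO knockdown, all higher (33.4% of all genes were called). After PKM2 knockdown 4 were called, 1 higher and 3 lower (68.4% of all genes). The chaperone CANX was higher in both, at log2 0.22 (adjusted P = 0.00171) and 0.16 (adjusted P = 0.0103). CALR, the lectin chaperone that sits in the loading complex with tapasin, fell from 841 ± 15.9 to 638 ± 26.8 CPM after PKM2 knockdown (log2 -0.40, adjusted P = 1.08e-05). Its log2 difference of 0.11 after NONO knockdown (adjusted P = 0.0324) lost the call without NC library 3 (adjusted P = 0.0981) and without knockdown library 1 (0.0893), 2 (0.128) or 3 (0.0956). BCAP31, an export receptor, was higher after NONO knockdown (log2 0.22, adjusted P = 0.00265) and lower after PKM2 knockdown (-0.17, adjusted P = 0.00819). With limma on log2(TPM + 1) BCAP31 (adjusted P = 0.0716) and CALR (0.299) lost their calls after NONO knockdown. CANX lost its call after PKM2 knockdown (0.913). The call of CALR after NONO knockdown was also lost in edgeR without the low-count filter (adjusted P = 0.059).

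The 13 regulators of class I genes gave 5 calls after NONO knockdown, 3 higher and 2 lower, where 33.4% of all genes were called. They gave 11 after PKM2 knockdown, 6 higher and 5 lower, where 68.4% of all genes were called. The 3 subunits of the RFX complex, which binds the X box of the SXY module, all fell after PKM2 knockdown. RFXANK went from 39.9, 40.2 and 41.6 to 4.72, 3.48 and 5.67 CPM (log2 -3.13, SE 0.12, adjusted P = 1.52e-09). RFX5 went from 65.9, 62.1 and 61.6 to 28.7, 31.7 and 28.7 CPM (log2 -1.09, adjusted P = 2.75e-08) and RFXAP from 10.8, 11.3 and 11.01 to 5.18, 4.77 and 4.36 CPM (log2 -1.21, adjusted P = 1.73e-06). In the same libraries HLA-B, HLA-C, HLA-E, B2M and CD274 were higher and TAPBP was lower, as described above. HLA-F, TAP1 and TAP2 were not called, and a link to the RFX genes was not tested. After NONO knockdown RFX5 differed by 0.01 (adjusted P = 0.868) and RFXANK by -0.20 (adjusted P = 0.0301, lost under DESeq2 at 0.0936, without NC library 2 at 0.127 and without knockdown library 1, 2 or 3 at 0.0975, 0.114 and 0.0514). RFXAP, the one with the lowest CPM, differed by -0.37 (adjusted P = 0.122), ran from -0.487 to -0.139 with a library left out, the latter without NC library 1, and was called without the low-count filter (adjusted P = 0.0383).

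Further regulators were named after their values were seen. NLRC5, the class I transactivator, rose from 63.0, 67.5 and 70.2 to 101, 93.8 and 89.0 CPM after PKM2 knockdown (log2 0.50, SE 0.06, adjusted P = 2.13e-05). After NONO knockdown it was lower, by -0.20 (adjusted P = 0.0147), a call lost without NC library 3 (adjusted P = 0.0698), knockdown library 1 (0.06) or knockdown library 3 (0.0755). IRF1, an interferon-induced factor that binds ISRE-type sites, was at 24.2, 27.8 and 23.9 CPM in NC and at 50.5, 49.98 and 50.1 CPM after PKM2 knockdown (log2 0.99, SE 0.07, adjusted P = 1.31e-07). NFYA, the NF-Y subunit that reads the CCAAT core, was higher after both knockdowns, by 0.65 (adjusted P = 4.62e-06) and 0.70 (adjusted P = 5.16e-07). NFYC fell after PKM2 knockdown (log2 -0.88, adjusted P = 6.85e-07).

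In the interferon gamma receptor pathway, 4 of 6 genes passed in each experiment, beside 33.4% and 68.4% of all genes. After NONO knockdown 1 was higher and 3 lower, and after PKM2 knockdown 2 were higher and 2 lower. JAK1, a kinase of the receptor, dropped from 128, 125 and 130 to 23.7, 24.3 and 21.7 CPM after PKM2 knockdown (log2 -2.46, SE 0.06, adjusted P = 8.05e-11), while after NONO knockdown it was at 142 ± 5.22 CPM beside 144 ± 2.94 CPM in NC (adjusted P = 0.763). IFNGR2, a chain of the receptor, was at 28.3, 27.7 and 30.6 CPM in NC and at 19.4, 19.3 and 20.97 CPM after PKM2 knockdown, without overlap (log2 -0.53, SE 0.07, adjusted P = 3.64e-05). It also fell after NONO knockdown (log2 -0.34, adjusted P = 0.00841), a call lost with limma on log2(TPM + 1) at 0.0995. SOCS1, the feedback inhibitor, fell after NONO knockdown from 2.06, 2.00 and 2.62 to 0.648, 0.509 and 0.254 CPM (log2 -2.23, SE 0.34, adjusted P = 0.00054). It rested on few reads.

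Of 13 partners of PD-L1 and other checkpoint ligands, 8 were tested. After NONO knockdown 4 passed, 1 higher and 3 lower, and after PKM2 knockdown all 8 passed, 2 higher and 6 lower. Of all genes, 33.4% and 68.4% passed, with 33.6% higher and 34.7% lower after PKM2 knockdown. CMTM6 and CMTM4 protect PD-L1 protein from degradation. CMTM4 fell from 43.8, 38.6 and 42.0 to 8.16, 7.56 and 5.31 CPM after PKM2 knockdown (log2 -2.57, SE 0.12, adjusted P = 6.75e-09), while CMTM6, named after its values were seen, rose from 70.8 ± 1.93 to 111 ± 2.71 CPM (log2 0.65, adjusted P = 2.77e-07). CD276, the ligand B7-H3, fell from 59.9 ± 3.02 to 31.5 ± 0.323 CPM (log2 -0.93, adjusted P = 6.9e-08) and TNFRSF14, the ligand of BTLA, from 7.17 ± 0.755 to 3.91 ± 0.525 CPM (log2 -0.87, adjusted P = 0.000234). CD80 and CD86, the costimulatory ligands of professional antigen presenting cells, were listed at 0 TPM in every library.

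Most class I-like molecules and NK cell ligands that passed the test were lower in both experiments. Of 9 tested among 13, 7 passed after NONO knockdown, 1 higher and 6 lower (median log2 -0.63), and 7 after PKM2 knockdown, all lower (median -0.62). Over all genes tested, 33.4% passed after NONO knockdown, 17.2% lower, and 68.4% after PKM2 knockdown, 34.7% lower. ULBP3, a ligand of the activating receptor NKG2D, went from 22.5, 17.3 and 17.1 to 12.1, 11.9 and 11.2 CPM after NONO knockdown (log2 -0.69, adjusted P = 0.000995), and from 22.2, 21.5 and 18.8 to 6.34, 7.09 and 7.65 CPM after PKM2 knockdown (log2 -1.57, adjusted P = 8.72e-08). RAET1G, another NKG2D ligand, was low and fell in both, by -1.34 (adjusted P = 0.00328) and -1.17 (adjusted P = 0.00173). FCGRT, the neonatal Fc receptor, which pairs with B2M, fell after PKM2 knockdown to 0.335 of NC (log2 -1.58, adjusted P = 1.14e-07). MICA, named after its values were seen, fell after NONO knockdown (log2 -0.52, adjusted P = 4.35e-05). HFE, an iron regulator that also pairs with B2M, was the exception after NONO knockdown, with a rise of 0.69 (adjusted P = 0.00195) beside a fall after PKM2 knockdown (log2 -0.56, adjusted P = 0.00252).

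**Figure D4:**
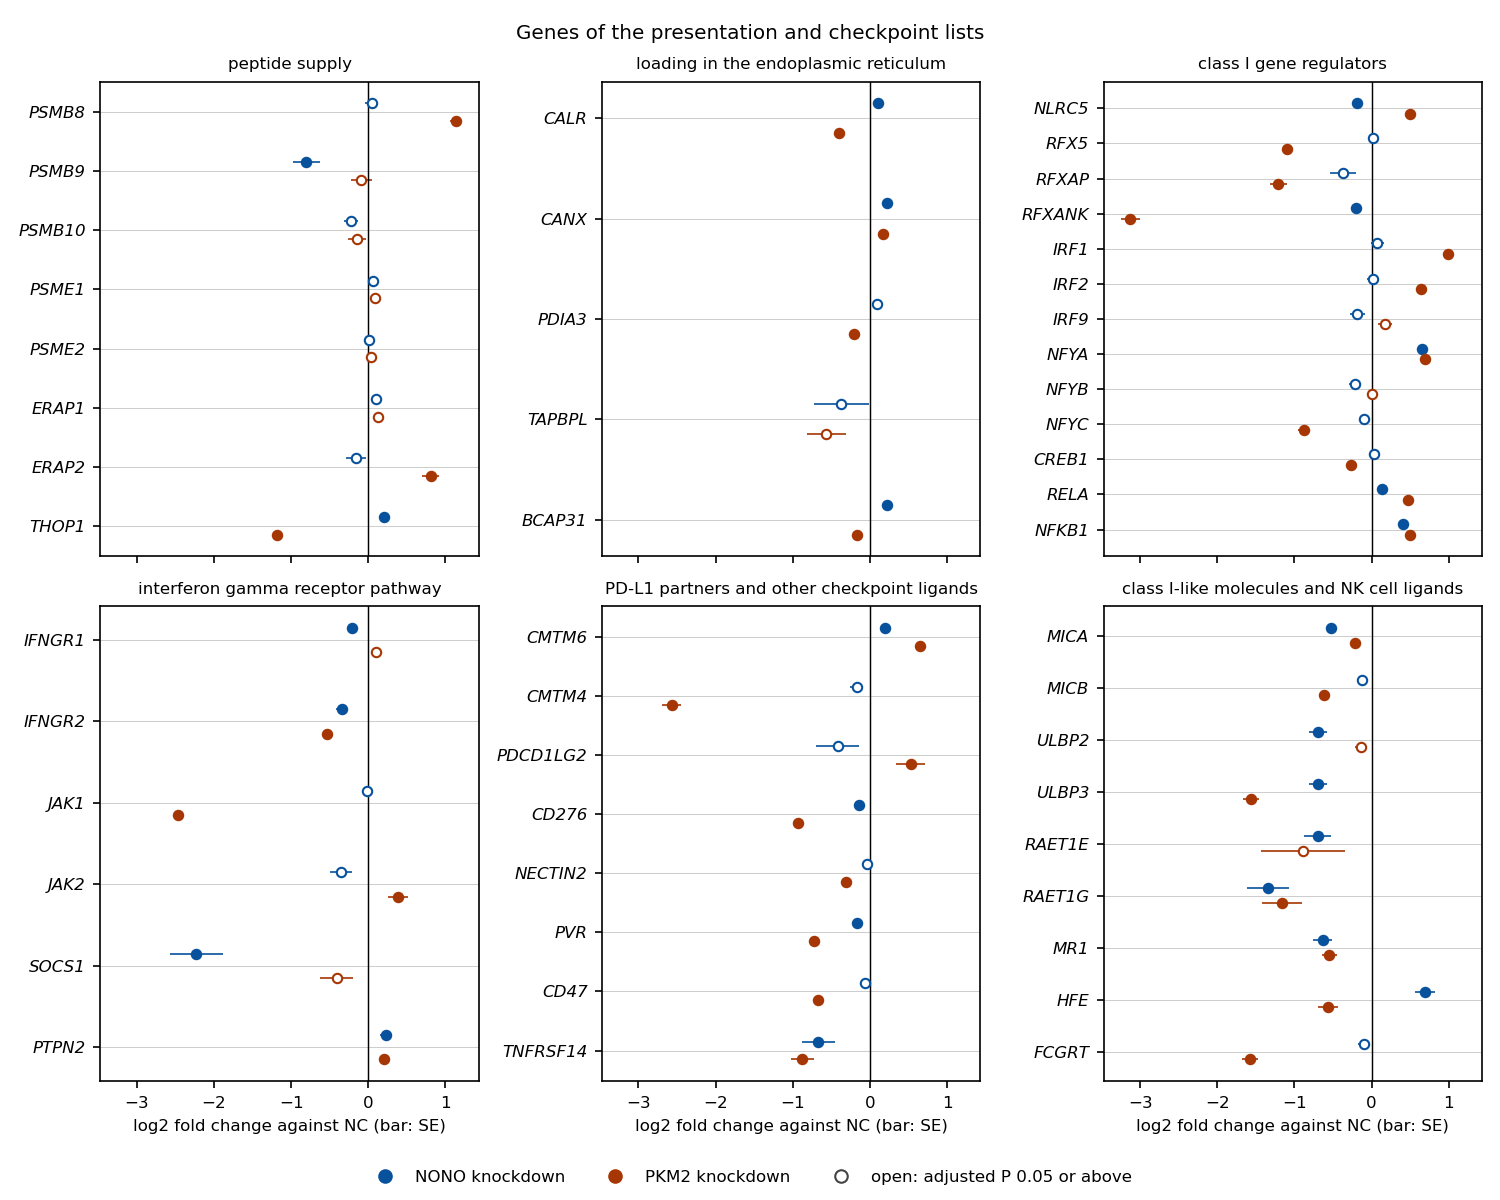
Log2 fold change against NC with SE (horizontal axis) for the 49 tested genes of the 6 lists, blue for NONO and brown for PKM2 knockdown, open where the adjusted P was 0.05 or above. RFXANK (-3.13), CMTM4 (-2.57) and JAK1 (-2.46) lie farthest to the left after PKM2 knockdown.

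The pattern of HLA-B and CD274 over the 12 libraries, each centred on its own NC mean, was compared with 14525 genes tested in both experiments. The genes closest to HLA-B were POLR3GL (Pearson r = 0.995), PSAP (0.992) and IFITM3 (0.987). PSAP encodes a lysosomal precursor protein and IFITM3 an interferon-induced membrane protein. The log2 fold changes after PKM2 knockdown were 0.65 for POLR3GL, 0.37 for PSAP and 0.51 for IFITM3. The genes closest to CD274 were KAT6B (0.992), ZCWPW2 (0.963) and ERCC4 (0.962). These values describe likeness over the libraries of 2 experiments, which fall into their groups, so they carry no test.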

How the data were processed

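Poly(A) RNA-seq of MDA-MB-231 cells was analysed in 4 groups of 3 libraries, grouped by their labels. Column names repeat between the tables, so a column's experiment is that of its table. The authors deposited, per gene, fractional estimated counts and TPM. The submitters' processing notes list fastp, HISAT2, StringTie, RSEM, DESeq2, edgeR and limma and the build hg19, without roles; versions, annotation release, strand and the sharing of reads between similar genes are not given in the sources used here. Class I heavy chain genes resemble each other and differ between people, so their counts are uncertain. The authors' own fold changes, P values and mean TPM were not used, and 0 columns of per-library values were left out. The siRNA comes from the series design text.

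Estimated counts were rounded and tested with edgeR 4.0.16 (R 4.3.3; quasi-likelihood, TMM, filterByExpr defaults, no replicate block), each experiment separately and the difference between knockdowns as an interaction over 12 libraries. P values were adjusted by Benjamini-Hochberg over all genes tested. SEs came from the F statistic. The alternatives tried were relative log expression factors, DESeq2 1.42.0, no filter, a replicate block, limma 3.58.1 on log2(TPM + 1) at a mean TPM of at least 1, a pseudocount of 0.1, no TPM filter, a fold change above 2 with P below 0.05, and each library left out. Removal of the trend with GC content and length in 20 bins each was added after seeing the data. Ratios were tested by exact permutation. edgeR and DESeq2 were also run on counts simulated from edgeR's own estimates with planted changes. Such data cannot show how the tests handle outlying libraries or the GC trend. Replicates were compared by chi-square per degree of freedom (2.33 to 12.3), so no pair was counted as 1 library. Pairs with NC library 1 of the NONO experiment gave 10.2 and 8.29, and the remaining NC pair there gave 2.47. Pairs with PKM2 knockdown library 3 gave 12.3 and 10.5, and the remaining PKM2 knockdown pair gave 3.34. Gene overlaps come from GENCODE on GRCh38, promoters from RefSeq, neither of them the authors' build.

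The 9 genes and the lists were chosen with earlier results of these data known. List genes named are up to 3 per list with the largest absolute log2 fold change among those called in either experiment, and others are marked as such. Some genes of the lists are not reported here and were left out of the list counts. Library depth ran from 19861762 to 28455268 estimated counts, and low counts limit HLA-F most.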

Additional observations from a re-analysis of the deposited data

Results flagged for a closer look

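The change after PKM2 knockdown differed from that after NONO knockdown, by the interaction test in edgeR, for 7 of the 9 genes. The same test called 53.1% of 15995 genes. As PKM2 minus NONO on the log2 scale, the difference was 0.43 for HLA-B (0.57 against 0.12), 0.35 for HLA-C (0.25 against -0.12), 0.49 for B2M (0.79 against 0.28), 0.38 for TAP1 (0.06 against -0.33), 0.43 for TAP2 (0.05 against -0.39), -1.69 for TAPBP (-1.60 against 0.07) and 0.60 for CD274 (0.39 against -0.22). Each knockdown was set against its own 3 NC libraries. For B2M and TAPBP the difference passed in every alternative fit run, with values from 0.44 to 0.53 and from -1.74 to -1.50. Removal of the trend with GC content and length was not run for this difference. Within the experiments that step gave B2M 0.21 after NONO and 0.51 after PKM2 knockdown, and TAPBP 0.10 and -1.39. For TAP2 the limma fits on TPM gave the opposite sign. Experiment and knockdown cannot be told apart in this design.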

How the results depend on the processing

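The number of genes of the 9 called after NONO knockdown was 4, and 2 with each limma fit on TPM and 0 at a fold change above 2. With each library left out it was 4 to 6. After PKM2 knockdown the number was 6 (5 higher, 1 lower), 7 with limma at both pseudocounts (4 higher, 3 lower), 4 without the TPM filter, 1 at a fold change above 2, and 5 to 7 with a library left out. The difference between knockdowns was called for 7 genes, for 4 with limma on log2(TPM + 1), 2 without the TPM filter and 1 at a fold change above 2, and for 7 with any library left out. List genes called after NONO knockdown numbered 25, 16 with limma at both pseudocounts, 12 without the TPM filter, 2 at a fold change above 2, and 16 (without knockdown library 3) to 28 with a library left out. After PKM2 knockdown they numbered 37, 10 at a fold change above 2, and 33 to 39 with a library left out. In the main fits 33.4%, 68.4% and 53.1% of all genes were called after NONO knockdown, after PKM2 knockdown and as different between knockdowns. A fold change above 2 with P below 0.05 was passed by 2.95% of all genes after NONO knockdown and 20.8% after PKM2 knockdown. For the other settings the share of all genes was not computed, so these numbers cannot be read as particular to the genes counted.

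The replicate numbers did not pair the samples, since deviations of same-numbered libraries from their group means correlated at -0.098 to 0.04. With a replicate block the counts were 4, 6 and 7 of the 9 genes and 21 and 37 list genes, and among the genes named the calls of CALR (adjusted P = 0.0816), RFXANK (0.0634) and CD276 (0.0715) after NONO knockdown were lost.

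Sign changes other than those of TAP2 involved values without a call. Limma on TPM gave TAPBP -0.001, PSMB8 -0.009 and RFX5 -0.061 or -0.062 after NONO knockdown and HLA-F 0.003 at a pseudocount of 0.1. It gave TAP1 -0.087 or -0.09 and TAP2 -0.408 or -0.415 after PKM2 knockdown, and -0.339 or -0.343 for the TAP2 difference. With libraries left out, HLA-F after NONO knockdown ran from -0.205 to 0.064, PSMB8 from -0.043 to 0.093 and JAK1 from -0.05 to 0.003, and PSMB9 after PKM2 knockdown from -0.186 to 0.003. The HLA-E difference was 0.014 with DESeq2 and 0.011 with relative log expression factors, and ran from -0.044 to 0.079 with a library left out. HLA-B after NONO knockdown was called without the low-count filter (0.13, adjusted P = 0.0481). The cause was not tested. Low counts limit HLA-F and SOCS1.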
